A study of Mus musculus with 19 samples.

Results

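H4c9 and H4c14 are 2 mouse genes for histone H4, described here in the forebrain of mice with or without 6 h of enforced wakefulness. The rows were taken as those whose only gene symbol in the platform annotation is H4c9 or H4c14. Each gene had 1 such row (probe sets 17291053 and 17408021), out of 8751 rows in the deposited table and 1121 genes with a symbol of their own. They were chosen by their log2 change after sleep deprivation, as seen earlier in these same arrays, so that change is described here without a test. H4c14 was also named there for its genotype difference, so the test of that difference is not independent of its choice.

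The study used mice lacking the receptor tyrosine kinase EphA4 and their wild-type littermates, all of strain label Mixed BL6/10, on 12 h of light and 12 h of dark, and asked about EphA4 in sleep. There were 5 arrays from knockout (KO) mice deprived of sleep for 6 h, 4 from undisturbed KO mice, 6 from wild-type (WT) mice deprived of sleep for 6 h and 4 from undisturbed WT mice. The sources used here give neither age nor sex, nor how the knockout allele was built. The labels do not say whether the 19 arrays stand for 19 separate mice, and p-values therefore cover only array-to-array spread, which may be technical.

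Histone H4 is a core subunit of the nucleosome, the unit in which DNA is wrapped around histone proteins. Mammals carry many copies of the H4 gene, mostly in histone gene clusters, and these copies encode nearly or fully the same protein. The messages of such clustered genes usually end in a stem-loop in place of a poly(A) tail and are made mainly in S phase, when new DNA is packed. Most cells of the adult forebrain are neurons and glia that have left the cell cycle. Which cells gave the H4 messages read here was not tested.

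Few facts of the whole table bear on the 2 genes. Array medians lay between 5.94 and 6.07 in sleep-deprived KO mice, 5.93 and 6.04 in KO controls, 5.9 and 6.04 in sleep-deprived WT mice and 5.92 and 5.96 in WT controls, on the log2 scale. Correlations between arrays ran from 0.981 to 0.993. No row was named Epha4 by the annotation used here, so the genotype labels could not be checked on the targeted gene. Of 48 markers of forebrain, neurons, glia, endothelium, blood and dividing cells, 1 was measured under its own symbol. This was the neuronal gene Map2, at 11.7 to 11.8 on the 19 arrays, so the tissue label and the cell makeup could hardly be checked. In whole tissue, fewer cells of a type and less RNA per cell cannot be told apart.

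H4 genes are recognised in transcription partly through a promoter element shared by the family, with the core letters GGTCCG. The 250 bases before the start of H4c9 are shown because they hold this core, in capitals, followed by a TATA-like run. They lie at chr13:22041363-22041612 (GRCm38.p6, minus strand, from RefSeq).
H4c9: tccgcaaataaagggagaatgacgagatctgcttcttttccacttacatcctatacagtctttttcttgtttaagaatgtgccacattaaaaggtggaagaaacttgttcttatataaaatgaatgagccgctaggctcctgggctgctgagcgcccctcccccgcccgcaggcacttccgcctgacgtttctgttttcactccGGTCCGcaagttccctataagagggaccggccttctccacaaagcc

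The core begins 46 bases before the start. Searched on both strands, GGTCCG was found in the 250 bases before the start of 9 of 12 H4 genes in the RefSeq promoter table and of 6.72% of all 32851 promoters. With the first 50 bases of the gene added (windows of 300 bases), it was found for 11 of the 12 and for 8.25% of all. TATAAG was found in the 250 bases of 5 of the 12 H4 genes, H4c9 among them, and of 6.65% of all, and CCAAT in 3 of the 12, not including H4c9, and in 33.8% of all. H4c14 had no entry in the promoter table.

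To set H4c9 beside other H4 genes that have a row of their own, the 40 bases around the core are given for the 4 that hold it before their start, H4c9 included. The windows lie at chr13:22041383-22041422 (minus strand) for H4c9, chr13:21811685-21811724 (plus) for H4c17, chr13:21750560-21750599 (minus) for H4c12 and chr6:136804438-136804477 (minus) for H4f16, all in GRCm38.p6, with GGTCCG in capitals.
H4c9: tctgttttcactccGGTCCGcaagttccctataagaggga
H4c17: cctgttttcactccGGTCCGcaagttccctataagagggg
H4c12: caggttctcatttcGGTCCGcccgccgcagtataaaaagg
H4f16: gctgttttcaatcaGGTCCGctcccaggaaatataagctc

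Position by position, 38 of the 40 bases of H4c17 were those of H4c9, against 20 for H4c12 and 23 for H4f16. The values of these rows are set beside each other further on.

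H4c9 read higher after sleep deprivation in both genotypes. In sleep-deprived KO mice its deposited log2 values were 7.46, 7.52, 7.64, 7.01 and 6.95, against 6.84, 6.69, 6.54 and 6.70 in KO controls. All 5 sleep-deprived KO arrays lay above every KO control, which among all rows was so for 3.09%. The 5 fell into 3 arrays near 7.5 and 2 near 7.0. In sleep-deprived WT mice H4c9 read 7.25, 6.92, 7.26, 7.17, 6.93 and 7.48 (median 7.21), against 6.90, 6.58, 6.51 and 7.31 in WT controls. These groups overlapped because WT control replicate 4, at 7.31, lay above 5 of the 6 sleep-deprived arrays, while all 6 lay above the mean of the controls. Among all rows, 0.891% had every sleep-deprived WT array above every WT control.

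The mean of H4c9 was 7.32 ± 0.31 in sleep-deprived KO mice (SD, n = 5) and 6.69 ± 0.12 in KO controls (SD, n = 4), a log2 difference of 0.62 ± 0.17 (SE), or 1.54-fold. In WT the means were 7.17 ± 0.22 after sleep deprivation (SD, n = 6) and 6.83 ± 0.37 in controls (SD, n = 4), a log2 difference of 0.34 ± 0.16 (SE), or 1.27-fold. Averaged over the genotypes the difference was 0.48 ± 0.12 (SE), or 1.40-fold. Of all rows, 0.14% had a larger difference of either sign, but H4c9 was chosen by this change, so the share tests nothing. Without WT control replicate 4 the WT difference was 0.51 ± 0.15 (SE), and over all arrays left out in turn it ran from 0.24 to 0.51.

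H4c14 was also higher after sleep deprivation, by a smaller and more even amount. It read 6.72, 6.63, 6.65, 6.64 and 6.32 in sleep-deprived KO mice, against 6.22, 6.46, 6.24 and 6.41 in KO controls. Here 4 of the 5 sleep-deprived KO arrays lay above every KO control, and replicate 5 lay within their range. In sleep-deprived WT mice it read 6.63, 6.90, 7.07, 6.94, 6.91 and 6.72 (median 6.91), against 6.71, 6.60, 6.51 and 6.55 in WT controls. Of the 6 sleep-deprived WT arrays, 5 lay above every WT control.

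H4c14 averaged 6.59 ± 0.16 in sleep-deprived KO mice (SD, n = 5) and 6.33 ± 0.12 in KO controls (SD, n = 4), a log2 difference of 0.26 ± 0.10 (SE), or 1.20-fold. In WT it averaged 6.86 ± 0.16 after sleep deprivation (SD, n = 6) and 6.59 ± 0.09 in controls (SD, n = 4), a log2 difference of 0.27 ± 0.09 (SE), or 1.21-fold. Averaged over the genotypes the difference was 0.27 ± 0.07 (SE), and 2.05% of all rows had a larger one of either sign. In this comparison 23 rows, 0.263% of the table, passed limma's test at an adjusted p under 0.05. No test is given for H4c9 and H4c14, which this change selected.

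**Figure D1:**
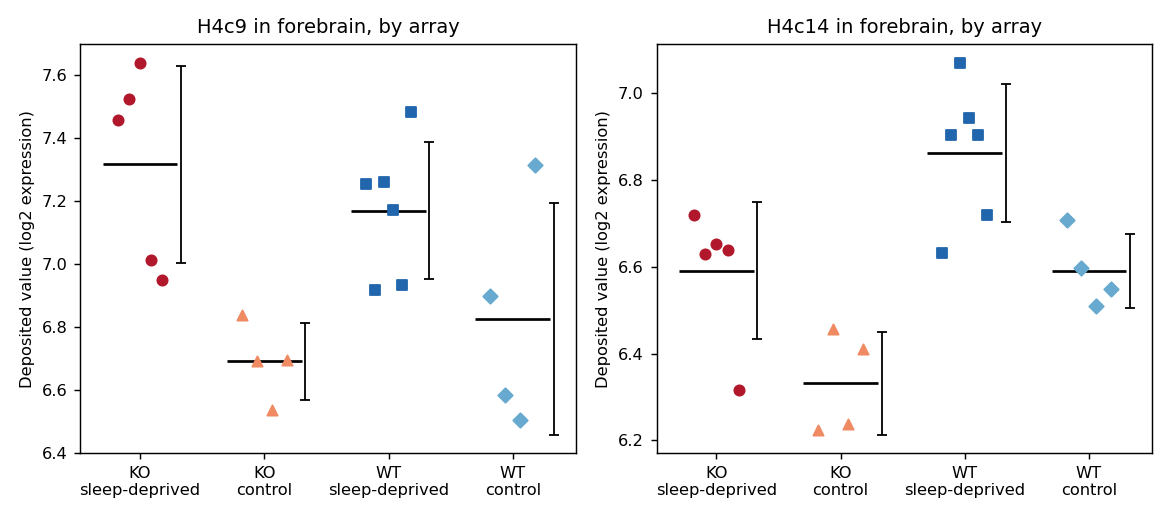
Deposited log2 values (vertical axis) of H4c9 (left) and H4c14 (right) on each array, by group; lines are group means and the bars beside them ± 1 SD. H4c9 in the 5 sleep-deprived KO arrays (6.95 to 7.64) lies above all KO controls (6.54 to 6.84), and H4c14 in the KO controls (6.22 to 6.46) lies below all WT controls (6.51 to 6.71).

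The genotypes were then compared for each gene, and limma's moderated test was used for 8 tests in all (2 genes, 4 comparisons), with adjustment over all 8751 rows. H4c14 read lower in KO mice by a similar amount in both conditions, though it passed the threshold in none. Since H4c14 was named earlier for its genotype difference too, its tests here are not independent of its choice. After sleep deprivation the difference between KO and WT was -0.27 ± 0.09 (SE, adjusted p = 0.119), and the groups overlapped. All 5 KO arrays lay below the WT mean and 2 of them below every WT array, 1 of these barely (6.630 against 6.632). Among all rows, 0.514% had every KO array below every WT array after sleep deprivation. In controls it was -0.26 ± 0.10 (SE, adjusted p = 0.872), and all 4 KO arrays lay below all 4 WT arrays. Among all rows, 1.5% had their KO controls all below their WT controls.

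Averaged over both conditions, H4c14 had a KO minus WT difference of -0.265 ± 0.066 (SE, adjusted p = 0.257 by limma, unadjusted p = 0.000746), with a 95% interval from -0.40 to -0.13. Neither this p nor this interval is independent of the choice of H4c14, which was named earlier for its genotype difference too. Over the alternatives run its adjusted p ran from 0.0885, with array weights, to 0.396, and the difference from -0.30 to -0.23. The share of rows past the threshold was 1.68% after sleep deprivation and 0.0114% averaged over conditions. In controls it was 0 of 8751 by limma, with 476 at an unadjusted p under 0.05.

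For H4c9 no genotype difference larger than the spread between arrays was found. Averaged over conditions, KO minus WT was 0.01 ± 0.12 (SE, adjusted p = 0.992), with a 95% interval from -0.23 to 0.25. Its sign turned with quantile normalization, with median centring and on leaving out some single arrays. After sleep deprivation KO minus WT was 0.15 ± 0.15 (SE, adjusted p = 0.711) and in controls -0.13 ± 0.17 (SE, adjusted p = 0.946), and in both conditions the arrays of the genotypes overlapped. The difference after sleep deprivation ran from 0.0656 without sleep-deprived KO replicate 3 to 0.2379 without sleep-deprived KO replicate 5, and that in controls was 0.0283 without WT control replicate 4.

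A difference between genotypes in the response to sleep deprivation was tested as the interaction, KO response minus WT response, for which 0.0686% of rows passed. For H4c9 it was 0.28 ± 0.23 (SE, adjusted p = 0.652), with a 95% interval from -0.20 to 0.76, so a difference in either direction could not be resolved with these arrays. It was 0.12 without WT control replicate 4. For H4c14 it was -0.01 ± 0.13 (SE, adjusted p = 0.979), with an interval from -0.29 to 0.26.

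**Figure D2:**
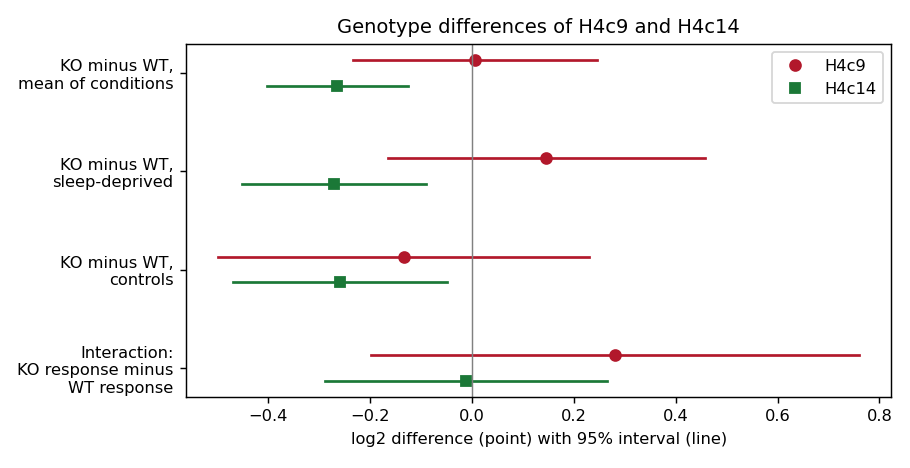
Log2 differences between KO and WT and the interaction (horizontal axis; points are estimates and lines 95% intervals) for H4c9 (circles) and H4c14 (squares). The H4c14 differences between genotypes sit between -0.27 and -0.26 in each condition and on average, and those of H4c9 between -0.13 and 0.15. H4c14 was named earlier for its genotype difference too.

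Within the groups the 2 genes showed no relation from array to array that passed a test. After removal of group means, the Pearson correlation over 19 arrays was 0.138 (permutation within groups, two-sided, p = 0.606) and Spearman's rho was 0.109 (permutation p = 0.678), 1 pair being tested. Without the 2 arrays farthest from the median of H4c9, r was 0.066. It was -0.116 without sleep-deprived KO replicate 5 and 0.083 without WT control replicate 3. On each of these arrays both genes were lowest in their group.

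**Figure D3:**
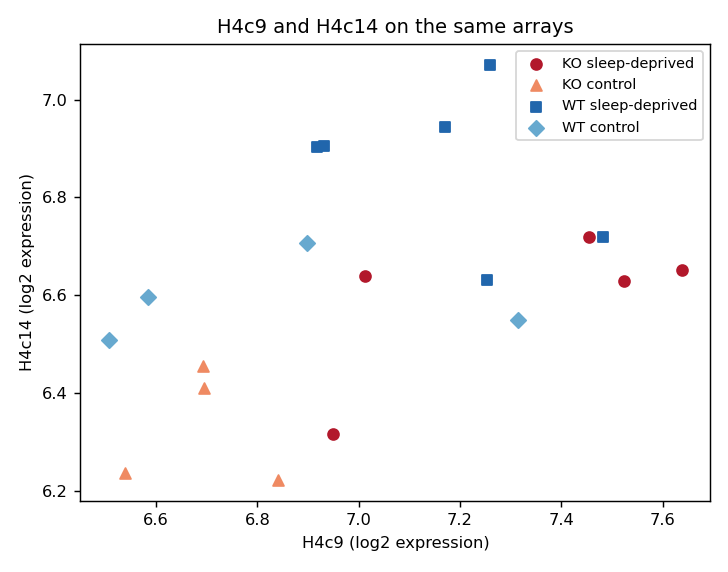
H4c14 against H4c9 on the same arrays (both in deposited log2 values), with a symbol for each group. Within each genotype, sleep-deprived arrays lie towards higher values on both axes. On the H4c14 axis the KO controls, with 1 sleep-deprived KO array, lie lowest (6.22 to 6.46). There the sleep-deprived KO arrays (6.32 to 6.72) overlie the WT controls (6.51 to 6.71). After removal of group means r is 0.138.

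Probes for near-identical gene copies can take up each other's message, and whether rows share probes is not given in the sources used here. The other H4 rows were therefore set beside the 2 genes, each as its own change, since levels of different probe sets cannot be compared. Besides H4c9 and H4c14, 7 rows carried a single H4 symbol, with H4f16 on 2 of them. None of the 7 passed limma's test for sleep deprivation averaged over genotypes, and 2 had an unadjusted p under 0.05, as did 694 of all 8751 rows. Their median log2 difference was -0.01, against 0.015 for all rows, and 3 of the 7 were positive, against 58.1% of all rows.

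H4c8 had the highest of these differences, 0.33 ± 0.13 (SE, adjusted p = 0.509). Its change was 0.56 ± 0.18 in KO (SE, adjusted p = 0.209) and 0.10 ± 0.18 in WT (SE, adjusted p = 0.911), in limma's test. Its group means of 3.55 to 4.10 were far under the array medians. H4c1 had a change of 0.37 ± 0.10 in KO (SE, adjusted p = 0.144) and -0.04 ± 0.10 in WT (SE, adjusted p = 0.934). Its interaction of 0.41 ± 0.14 (SE, adjusted p = 0.27) did not pass either.

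H4c17, whose bases around the core are nearly those of H4c9, had an averaged difference of -0.10 ± 0.08 (SE, adjusted p = 0.855 by limma). That row was dim, with group means from 3.82 to 4.00. H4c12, on a bright row at 11.2 to 11.4, had 0.04 ± 0.06 (SE, adjusted p = 0.926). H4c2 had -0.02 ± 0.08, and the rows of H4f16 had -0.02 ± 0.08 and -0.01 ± 0.08 (SE).

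A further 5 rows carried several H4 symbols. Of these, 4 named the same 13 H4 genes, H4c9 and H4c14 among them, and the other named 6, with H4c9. All 5 had a positive averaged difference, against 58.1% of all rows, with a median of 0.18, from 0.03 to 0.31. None passed limma's test, and 1 had an unadjusted p under 0.05, as did 694 of all 8751 rows. These rows share symbols with each other and with the genes chosen by this change, so they are not independent. The highest difference was that of row 17291019, at 0.31 ± 0.10 (SE, adjusted p = 0.322). Its values ran from 5.12 to 5.81 (median 5.29) in sleep-deprived KO mice, against 4.83 to 5.26 (median 4.97) in KO controls. In sleep-deprived WT mice they ran from 5.22 to 5.82 (median 5.47), against 5.00 to 5.48 (median 5.22) in WT controls. These groups overlapped in both genotypes.

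**Figure D4:**
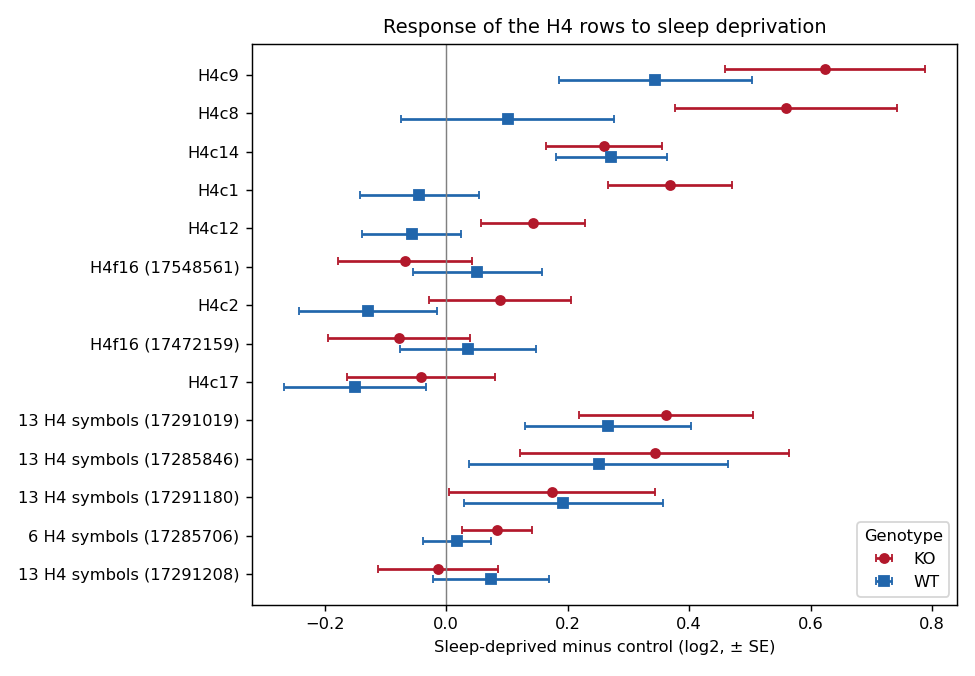
Change after sleep deprivation (sleep-deprived minus control, log2, horizontal axis; bars ± 1 SE) in KO (circles) and WT (squares) for 9 rows with a single H4 symbol and 5 rows with several. H4c9, chosen by this change as was H4c14, is highest in both genotypes (0.62 in KO, 0.34 in WT). H4c14 is nearly equal in both (0.26 and 0.27), and H4c8 and H4c1 have 0.56 and 0.37 in KO with 0.10 and -0.04 in WT.

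H4 pairs with H3 in the nucleosome, and H2A and H2B complete its core, while H1 binds the DNA between nucleosomes. Rows named for these histones, other than H3.3 and testis-type H2A, were counted next, with repeats of identical values left out and the 2 genes set aside. They were taken by name, and so include the rows of H4f16 and of H2bu1-ps. Of 44 such rows, 31 had a positive averaged difference after sleep deprivation, with a median of 0.05, against 58.1% positive and a median of 0.015 over all rows. The other 13 were negative, the lowest being the row of H2bu2 and H2bu1-ps at -0.32 ± 0.13 (SE). None of the 44 passed limma's test, and 14, of both signs, had an unadjusted p under 0.05, against 694 of all 8751 rows. Rows of such a class name overlapping sets of genes, so they are not independent.

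By class, 10 of 12 H3 rows were positive (median 0.07), 6 of 10 H2A rows (0.02) and 6 of 9 H2B rows (0.04). The smallest adjusted p was that of row 17291195, named for the linker histone gene H1f4 and 3 H2B genes, with 0.23 ± 0.05 (SE, adjusted p = 0.0799 by limma). Its changes were 0.24 in KO and 0.21 in WT. Rows of H3.3, the H3 form made outside S phase from genes such as H3f3a and H3f3b, lay between -0.07 and 0.06. H4c9 had a larger averaged difference than any of the other histone rows, but it was chosen by this same change, so its rank tests nothing. The highest of the other rows was 0.34, in a row of 8 H3 symbols.

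**Figure D5:**
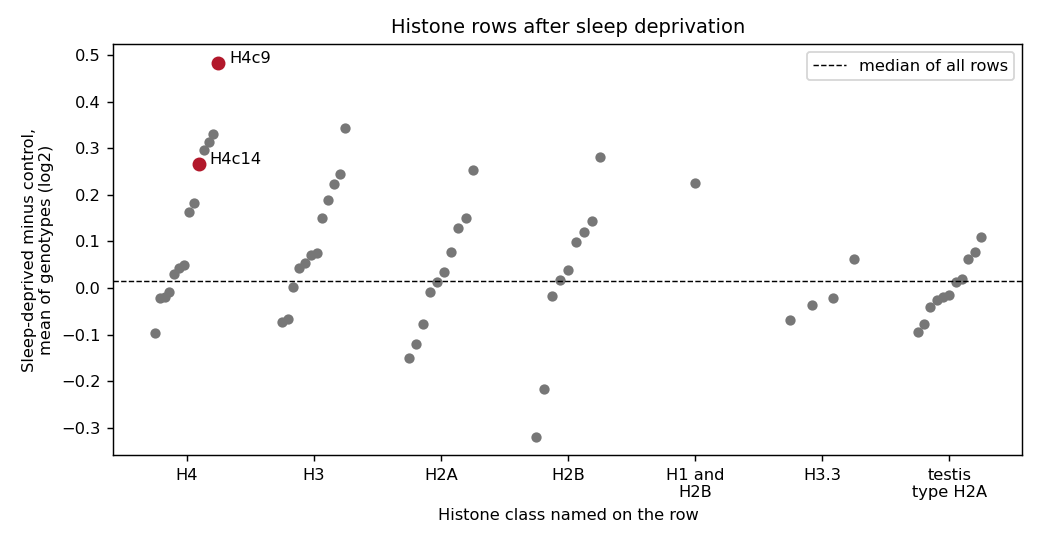
Change after sleep deprivation averaged over genotypes (log2, vertical axis) for every distinct histone row, by the histone named on it, with the median of all rows dashed (0.015). H4c9 (0.48) stands highest and H4c14 (0.27) lies among other H4 rows at up to 0.33, both having been chosen by this change. The H3.3 rows stay between -0.07 and 0.06.

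Genes around the pair gave little further. H4c9 lies between H2bc12 and H2ac11 in the RefSeq gene order and H4c14 next to H3c13 and near H3c14, and these histone neighbours were present only on rows of several symbols. Within 8 genes on either side, the 1 neighbour with a row of its own was H2ac21 near H4c14, with an averaged difference of -0.08 and a KO minus WT difference of -0.05.

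Of 145 genes for histone message processing, histone chaperones, H4-modifying enzymes and S phase, 5 were measured under their own symbol, and none passed limma's test in any of the 7 comparisons. These were Hat1, which acetylates newly made H4, with a change after sleep deprivation of 0.02 ± 0.05 averaged over genotypes (SE), and the chaperone Npm1, with 0.015 ± 0.052. Spty2d1, a chaperone of H3 and H4, had 0.11 ± 0.07, the deacetylase Hdac11 0.11 ± 0.06, and Pole, the catalytic subunit of a replicative DNA polymerase, 0.09 ± 0.06 (SE). Their adjusted p in that comparison lay between 0.671 and 0.977. Few rows of the whole table passed either. The share was 0 for sleep deprivation in WT and for KO against WT in controls, and at most 1.68% in the other comparisons.

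Genes whose values ran most like those of the pair were listed by Pearson correlation over the 19 arrays among the other 1120 genes with a symbol of their own, as a description. For H4c9 they were Kcna4, a voltage-gated potassium channel subunit (r = 0.749), Npc1, which moves cholesterol out of lysosomes (0.708), Fkbp5, which tempers glucocorticoid receptor signalling (0.678), Spty2d1 (0.678) and Ppil6 (0.667). With group means removed, r was 0.632 for Kcna4, 0.614 for Npc1, 0.638 for Spty2d1, 0.39 for Ppil6 and 0.24 for Fkbp5. All listed genes, here and for H4c14, were picked for the highest r on these same arrays, so its size tests nothing. The changes after sleep deprivation averaged over genotypes were 0.21 for Kcna4, 0.11 for Npc1, 0.42 for Fkbp5, 0.11 for Spty2d1 and 0.23 for Ppil6.

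For H4c14 the list was Hacd2, an enzyme of very long fatty acid synthesis (r = 0.741), Ndufaf2, an assembly factor of mitochondrial complex I (0.715), Wdr78 (0.696), A730028G07Rik (0.693) and Pdzd2 (0.682). With group means removed these were 0.484, 0.538, 0.426, 0.435 and 0.465. Between H4c9 and H4c14 r was 0.442, which put H4c9 at rank 50 of 1120 in likeness to H4c14 and H4c14 at rank 74 of 1120 in likeness to H4c9. All arrays share their normalization, which also enters these correlations.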

How the data were processed

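RNA of 19 forebrain samples was measured on Affymetrix Mouse Gene 2.0 ST arrays. The authors deposited log2 expression values, 1 for each probe set on each array. The submitters' processing notes name RMA, oligo and limma, without versions or roles, and the series' design text carries a notice that the data in the sample tables are not complete. The sources used here give neither the build nor the priming of the labelling reaction, which decides whether messages without a poly(A) tail are read. Arrays give no read depth, so their number limits the precision.

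Groups came from the sample titles. All 8751 rows were fitted with limma 3.58.1 in R 4.3.3 (4 group means, no covariates, all 19 arrays), with Benjamini-Hochberg adjustment over all rows, called under 0.05. Comparisons were: sleep deprivation averaged over genotypes, in KO and in WT, KO against WT averaged, after sleep deprivation and in controls, and the interaction. Of the rows, 1308 had 1 symbol, 1178 several and 6265 were unnamed here, and 346 repeated an earlier row. Members, lists and tests were chosen with earlier results of these data known. Genes named are the 2 members, every other histone row described by class, measured members of the lists and the 5 genes most alike. The member correlation used 100000 permutations within groups. Same-numbered replicates did not deviate together (mean correlations from -0.057 to -0.005), so the numbers were not taken as pairs. Scripts were tested on simulated data. Plots used matplotlib 3.10.9.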

Additional observations from a re-analysis of the deposited data

Results flagged for a closer look

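Among the 36 groups of arrays behind the 9 rows with a single H4 symbol, 4 had an array set apart from the rest of its group by Dixon's criterion, and chance flags about 1 in 20 groups. H4c14 read 6.32 in sleep-deprived KO replicate 5, against 6.63 for the nearest other array of the group. Without it the H4c14 change in KO was 0.33 and the difference between KO and WT after sleep deprivation was -0.20 (adjusted p = 0.224 by limma). H4c1 read 5.98 in sleep-deprived KO replicate 3, against 5.64 for the nearest. The H4f16 row 17472159 read 6.09 in sleep-deprived KO replicate 5, against 5.78, and the H4f16 row 17548561 read 7.22 in WT control replicate 3, against 7.57.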

How the results depend on the processing

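The changes of H4c9 and H4c14 after sleep deprivation (averaged, in KO and in WT) kept their sign and moved by less than 1 SD between arrays under every alternative run. The averaged change ran from 0.43 to 0.57 for H4c9 and from 0.24 to 0.31 for H4c14. No genotype or interaction test of either gene passed under any alternative. Signs turned where estimates were near 0, and the cause was not tested. H4c9 averaged over conditions (KO minus WT) was -0.0313 with quantile normalization, -0.0242 with median centring and -0.0472 to 0.0873 on leaving out single arrays, and in controls it was -0.2407 to 0.0283 on leaving them out. The H4c14 interaction was 0.0348 with array weights, 0.0051 with median centring and -0.0583 to 0.0567 on leaving out single arrays. The correlation of the pair was -0.12 to 0.26 on leaving out single arrays and 0.346 with median centring, and its p stayed between 0.187 and 0.813.

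Between KO and WT after sleep deprivation, 147 of 8751 rows were called. When only the rows with 1 symbol were tested it was 28 of 1308, a count on another base. Over all rows it was 36 with the sleep-deprived arrays alone and 70 with the replicate number as a block. On leaving out single arrays the count ran from 67 (sleep-deprived KO replicate 1) to 298 (sleep-deprived WT replicate 3), with 89, 78 and 78 without sleep-deprived WT replicates 1, 2 and 4 and 94 without sleep-deprived KO replicate 3. With the replicate number as a block the averaged change was 0.52 for H4c9 and 0.31 for H4c14. No genotype or interaction test of either gene changed its call with it. Averaging rows of a gene was not run, since each gene had 1 row. The averaged comparisons and the interaction use all groups, so no fit on fewer groups was made for them. The values hold no measure of background, so how far dim rows such as H4c8 and H4c17 lie above it is unknown here.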

Other observations

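Apart from the histone rows counted above, 11 distinct rows named testis-type H2A genes, most of them of the H2al1 group. After sleep deprivation 2 of 11 had a positive change in KO (median -0.11), against 53.4% of all rows. In WT all 11 were positive (median 0.07, highest 0.18), against 55.7% of all rows, and the interaction was positive in 1 of 11 (median -0.18), against 49.5%. That row, of H2ab1 and Gm14989, went the other way from most, with 0.21 in KO, 0.01 in WT and an interaction of 0.20. None of the 11 passed limma's test in these comparisons, which 0.263% of all rows passed in KO, 0 in WT and 0.0686% for the interaction. At an unadjusted p under 0.05 there were 2 rows in KO, 0 in WT and 2 for the interaction. Over all 8751 rows these counts were 1030, 683 and 1007. The rows name overlapping sets of genes and are not independent.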
